A study of Mus musculus with 12 samples.

Results

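Type I interferon-stimulated genes were described as a set of 35 genes, chosen by name and read from the FPKM matrix with the transcripts of each gene summed. All 35 were among the 24383 genes of the matrix. Of these, 33 had at least 1 FPKM in at least 3 libraries and were tested among 10089 genes, while Oas2 and Ifi44 did not reach that level. FPKM is the number of sequenced fragments per kilobase of transcript, scaled to the mapped fragments of the library, so it can be compared between genes.

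The libraries came from CD4 T effector cells recovered from NOD.scid mice, a strain without T and B cells of its own, after adoptive transfer. Libraries fell into 4 groups of 3, from 6 recipients that each gave an islet and a spleen library, namely islet Y16A, islet WT, spleen Y16A and spleen WT. Y16A cells came from spleens of female NOD.InsY16A Tg mice and WT cells from spleens of female NOD mice, all donors being 6 to 8 weeks old and immunized with insulin C19A. In all groups splenocytes were cultured for 2 weeks with 10 µM peptide (InsB9-23 in the design text), CD4 cells were purified by magnetic beads to over 95% with under 1% Foxp3+ cells, and 5 M cells were given to female NOD.scid recipients of 8 to 10 weeks. The labels name no sort after recovery, and whether the cells of an origin came from a single culture or donor is not given in the sources used here. The replicates are therefore recipient mice. The sample titles read pancreas where the tissue label reads islets.

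The type I interferons, the interferon alpha family and interferon beta, bind the receptor chains IFNAR1 and IFNAR2, which signal through the kinases JAK1 and TYK2. A complex that holds STAT2 and IRF9 then binds interferon-stimulated response elements in target promoters. The induced genes restrict viral replication, amplify the response (Irf7, Stat2, Irf9) or end it (Usp18). In islet autoimmunity, interferon-induced transcripts are a known feature of early disease in NOD mice and humans.

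The element bound by this complex was searched as GAAANNGAAA on either strand, overlaps allowed, in RefSeq promoter windows of 300 bases on GRCm38.p6, from 250 before to 50 after the start site. A window was at hand for 26 of the 35 genes. The letters were present in 11 of them (42.3%), Ifit1, Ifit3, Isg15, Oas1a, Oas3, Rsad2, Stat2, Bst2, Ifih1, Trim30a and Eif2ak2, against 3.99% of 27025 genes with a window. The 160 bases before the start site are shown for 3 genes with the motif that span low to high levels and are described below, and for Cmpk2, which had none in its window and is the neighbour of Rsad2. Each reads 5′ to 3′ on the strand of the gene, with the matches in capitals. They lie at chr4:156200819-156200978 on the minus strand (Isg15), chr8:71537473-71537632 on the minus strand (Bst2), chr12:26456453-26456612 on the minus strand (Rsad2) and chr12:26469055-26469214 on the plus strand (Cmpk2, from the RefSeq start site of its transcript). The span of the Cmpk2 gene begins at 26469117, so part of its stretch lies inside the gene and less of the sequence before the gene was searched.
Isg15: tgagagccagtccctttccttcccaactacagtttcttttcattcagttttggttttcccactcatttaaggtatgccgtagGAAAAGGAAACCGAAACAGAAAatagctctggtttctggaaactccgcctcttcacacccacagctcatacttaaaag
Bst2: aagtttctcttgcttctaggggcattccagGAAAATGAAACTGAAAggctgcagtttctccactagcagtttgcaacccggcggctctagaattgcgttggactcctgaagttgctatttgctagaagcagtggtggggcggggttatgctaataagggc
Rsad2: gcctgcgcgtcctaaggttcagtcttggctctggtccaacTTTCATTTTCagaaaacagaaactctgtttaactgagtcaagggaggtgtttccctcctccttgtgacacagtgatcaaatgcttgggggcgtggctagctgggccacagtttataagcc
Cmpk2: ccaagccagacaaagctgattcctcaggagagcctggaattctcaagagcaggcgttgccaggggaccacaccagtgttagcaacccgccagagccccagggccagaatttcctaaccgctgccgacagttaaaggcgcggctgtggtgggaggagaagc
Isg15 held 3 overlapping matches, Bst2 held 2 overlapping matches and Rsad2 held 1, on the opposite strand. A match describes these letters and does not show binding. For Y16A against WT the median log2 change, relative to the median gene, was -0.39 in islets and -0.25 in spleen for 11 tested genes with the motif, and -0.39 and -0.14 for 14 without it. For islet against spleen it was -0.35 in Y16A cells and -0.12 in WT cells with the motif, and -0.39 and -0.40 without it. These medians were not tested against each other.

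The 12 libraries listed 7456 to 8676 genes at 1 FPKM or more, and their FPKM totals ran from 163868 in spleen WT 1 to 342434 in islet WT 3. Depth estimated from the steps of low values was 4.65 to 9.1 M fragments, at which 3 fragments on a transcript of 1500 bases equal 0.254 to 0.496 FPKM. The estimate is rough. It assumed fragments of 200 bases, and the steps were weak, with a mean cosine of 0.21 to 0.332 where 1 would be a perfect step pattern. T cell markers were present in every group, with summed levels of 3196 to 4201 FPKM in islet Y16A, 2536 to 3557 in islet WT, 2308 to 2902 in spleen Y16A and 1910 to 2931 in spleen WT. Transcripts of other cells were also present. Exocrine pancreas markers summed to 1422 to 3805 FPKM in islet Y16A, 1546 to 5448 in islet WT, 2.65 to 8.96 in spleen Y16A and 3.74 to 6.14 in spleen WT. Macrophage markers summed to 29.8 to 44.2 FPKM in islet Y16A, 29.8 to 63.2 in islet WT, 102 to 159 in spleen Y16A and 72.0 to 99.0 in spleen WT. Neutrophil markers summed to 0.549 to 4.55 FPKM in islet Y16A, 0 to 1.56 in islet WT, 95.1 to 181 in spleen Y16A and 107 to 240 in spleen WT. Markers of plasmacytoid dendritic cells, a main source of interferon alpha, summed to 2.58 to 3.601 FPKM in islet Y16A, 2.85 to 9.50 in islet WT, 3.37 to 11.8 in spleen Y16A and 4.35 to 6.17 in spleen WT. In such bulk samples a change in the cells present and a change per cell cannot be told apart, and the part of these markers in the results was not tested.

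The interferon-stimulated genes spanned from near 0 to over 100 FPKM. Bst2, the membrane protein tetherin that holds budding virions at the cell surface, averaged highest over the 12 libraries at 105 FPKM (range 65.4 to 168). Zbp1, a sensor of Z-form nucleic acids, averaged 87.3 FPKM (21.7 to 126), and the exonuclease Isg20 averaged 54.9 (21.5 to 115). Ifi35, a partner of the regulator Nmi, averaged 46.4 FPKM (25.7 to 78.4), and the secreted glycoprotein Lgals3bp 40.1 (31.3 to 56.9). The ubiquitin-like Isg15 averaged 38.3 FPKM (1.89 to 66.0), and Samhd1, which depletes the nucleotides needed for reverse transcription, 26.5 (18.0 to 39.3). The levels of neighbours in this order overlapped across libraries.

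The transcription factors lay in the middle of the order. Irf7 averaged 22.4 FPKM (8.27 to 32.8), Irf9 averaged 16.3 (5.77 to 29.4) and Stat2 averaged 3.65 (1.88 to 6.55). Between 5 and 15 FPKM on average were the pro-apoptotic Xaf1 (14.8), the receptor-trafficking protein Rtp4 (12.2), the Isg15-removing protease Usp18 (9.44), the ADP-ribosyltransferase family member Parp9 (8.67), the RNA-binding Ifit1 (6.81) and Ifit3 (6.01), the 2′-5′ oligoadenylate synthetase Oas1a (5.46) and Phf11c (5.45). Below these were Dhx58, the helicase LGP2 (4.73), the ubiquitin ligase Trim30a (4.35), Parp14 (4.00), Dtx3l, the ligase that pairs with Parp9 (3.75), and the mitochondrial nucleotide kinase Cmpk2 (3.49). Oas3 averaged 2.94 FPKM, Mx1 2.64, the Isg15 ligase Herc6 2.26, Ifit2 1.90, Oasl2 1.49 and Eif2ak2, the RNA-activated kinase PKR, 1.42.

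The classical antiviral effectors Rsad2 (viperin), Mx2 and Oas2 and the RNA sensor Ifih1 (MDA5) were near the limit of detection. Rsad2 averaged 0.968 FPKM, Oasl1 0.734, Mx2 0.692, Ifih1 0.504, Oas2 0.382 and Ifi44 0.195, and each was listed at 0 in 2 to 7 libraries. Mx1 and Mx2 are annotated as transcribed pseudogenes on GRCm38, and Ifit3, Oas1a and Phf11c have near-identical copies, so their values may share reads with other genes.

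**Figure D1:**
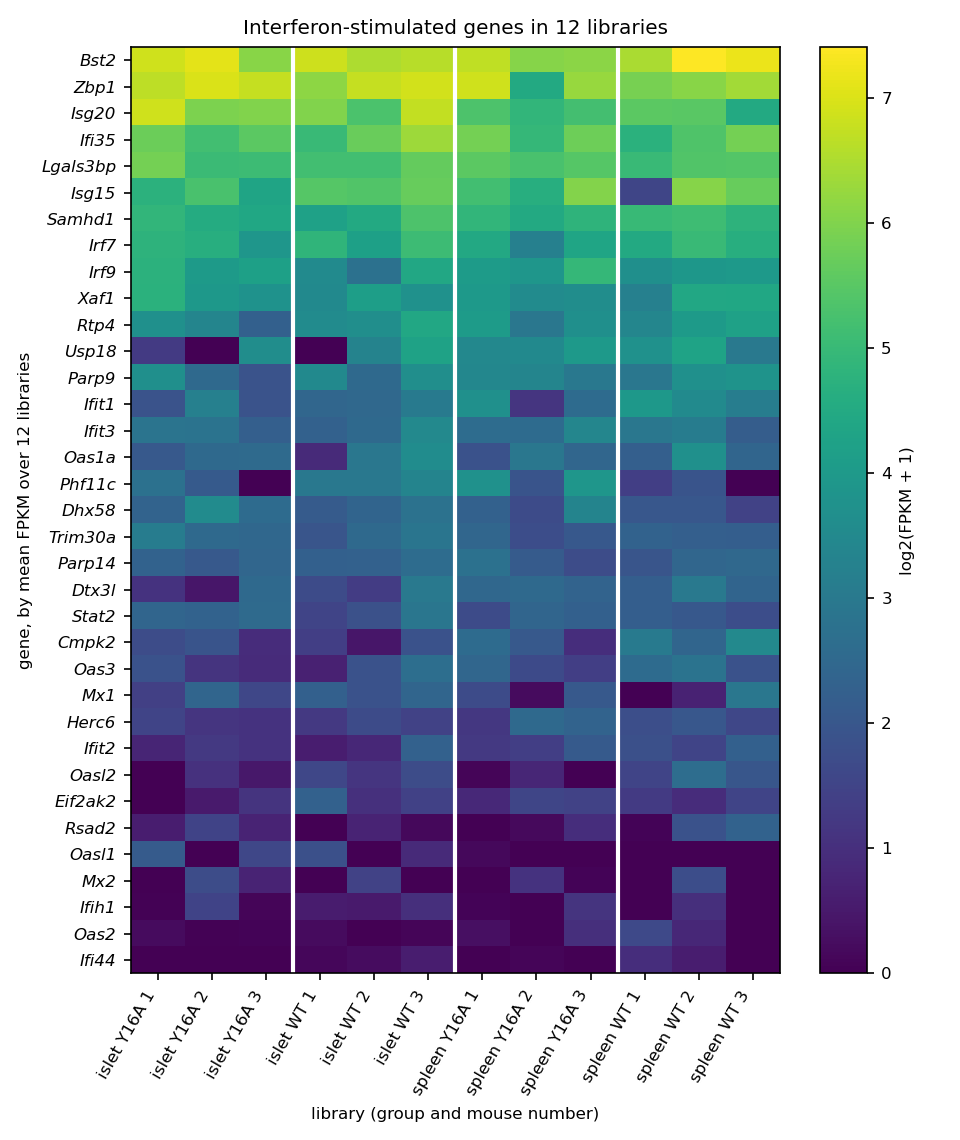
Levels of the 35 interferon-stimulated genes as log2(FPKM + 1), ordered down the page by mean FPKM, in 12 libraries along the page (islet Y16A, islet WT, spleen Y16A, spleen WT, 3 mice each). Bst2 averages 105 FPKM at the top and Ifi44 0.195 at the bottom, and the single dark cell of Isg15 is spleen WT 1 at 1.89 FPKM.

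No interferon-stimulated gene passed an adjusted p of 0.05 between islet and spleen cells in either origin (limma, Benjamini-Hochberg over 10089 genes). In Y16A cells 0 of 33 were called, where 1.17% of all tested genes were called (98 higher and 20 lower in islet). In WT cells 0 of 33 were called, where 0.813% of all tested genes were called (64 higher and 18 lower). These splits depended on the scaling: after quantile normalization 75 were higher and 48 lower in Y16A islets, and 69 higher and 35 lower in WT islets. At an unadjusted p under 0.05, 2 of 33 were higher and 1 lower in Y16A islets, where 8.1% of all tested genes were higher and 2.08% lower. The same count in WT islets was 1 higher and 1 lower, where 6.1% were higher and 2.6% lower.

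Log2 changes here and below are differences on the log2(FPKM + 1) scale, which understates the change of low genes. From each, the median over genes averaging above 5 FPKM was subtracted. That median was 0.32 for islet against spleen in Y16A cells, 0.16 in WT cells and 0.25 for their mean, 0.26 for Y16A against WT in islets, 0.07 in spleen and 0.16 for the interaction, which is the difference between the islet-against-spleen changes of Y16A and WT cells. No such subtraction entered the p-values, so each p-value belongs to the change before it and not to the value printed beside it. The median log2 change of the 33 genes was -0.35 in Y16A islets against Y16A spleens, beside -0.09 over all tested genes. In WT islets against WT spleens it was -0.16, beside -0.05, and it was -0.09 without islet WT 2 and -0.25 without spleen WT 3. In each origin 11 of 33 lay above the median gene and 22 below, where 43.2% of all tested genes lay above in Y16A cells and 46.1% in WT cells. Before the subtraction the median of the 33 was -0.03 in Y16A cells and -0.003 in WT cells. The lean is therefore relative to other genes and not seen in the levels as deposited.

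Isg20, an exonuclease of single-stranded RNA (chr7:78913396-78920396 on GRCm38.p6), had 115, 60.2 and 62.8 FPKM in islet Y16A, against 39.5, 28.1 and 35.5 FPKM in spleen Y16A. It had 63.1, 38.5 and 105 FPKM in islet WT, against 45.3, 44.5 and 21.5 FPKM in spleen WT. The Y16A groups did not overlap, as for 14.6% of all tested genes in this direction, while the WT groups overlapped, and Isg20 was higher in the islet library of 5 of 6 mice. The log2 change was 0.81 ± 0.41 (SE) in Y16A cells (limma p 0.0128, adjusted p 0.286) and 0.68 ± 0.41 in WT cells (p 0.0568, adjusted p 0.603). The changes tested, before the median was subtracted, were 1.13 in Y16A cells and 0.83 in WT cells. Over both origins, where 2.31% of all tested genes and 0 of these 33 were called, 5 of the 33 and 13.6% of all tested genes had an unadjusted p under 0.05, and 8 of the 33 and 42.5% of all lay above the median gene. There Isg20 had the smallest adjusted p of the set (log2 change 0.74 ± 0.29, p 0.00326, adjusted p 0.0977). With the highest transcript in place of the sum, the change over both origins before subtracting the median was 2.29 (adjusted p 0.488), against 0.98 with the sum. Isg20 passed when only genes averaging at least 5 FPKM were tested (adjusted p 0.0482), a filter that left 17 of these genes among 4235. Of the 4235, 196 were called higher and 31 lower in islets. Isg20 was 1 call among 17, near that share.

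Cmpk2, a mitochondrial kinase of pyrimidine nucleotides (chr12:26469117-26479837), went the other way. It had 2.31, 2.79 and 0.930 FPKM in islet Y16A, against 5.07, 3.22 and 0.959 FPKM in spleen Y16A. It had 1.61, 0.366 and 2.65 FPKM in islet WT, against 7.32, 4.36 and 10.3 FPKM in spleen WT. The WT groups did not overlap, as for 3.87% of all tested genes in this direction, and the Y16A groups overlapped. The log2 change was -1.91 ± 0.55 in WT cells (p 0.00526, adjusted p 0.258), -0.67 ± 0.55 in Y16A cells (p 0.534, adjusted p 0.887) and -1.30 ± 0.39 over both origins (p 0.0149, adjusted p 0.227). Cmpk2 was the only gene of the 35 that was lower in the islet library of 6 of 6 mice, which held for 1.78% of all tested genes. None was higher in 6 of 6, where 6.71% of all tested genes were.

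Rsad2, which encodes viperin and lies beside Cmpk2 (chr12:26442743-26456452), is often induced together with it. It had 0.518, 1.82 and 0.675 FPKM in islet Y16A, against 0, 0.142 and 0.960 FPKM in spleen Y16A. It had 0, 0.661 and 0.107 FPKM in islet WT, against 0.0512, 2.68 and 3.99 FPKM in spleen WT. Both pairs of groups overlapped, and most of these values are at or near the level of 3 fragments. The interaction had an unadjusted p of 0.0466 and an adjusted p of 1 (log2 change 1.53 ± 0.79). No tested gene was called for the interaction (0%), and 2 of these 33 had an unadjusted p under 0.05, where 4.3% of all tested genes did. Of the 33, 15 lay above the median gene in the interaction, where 48% of all tested genes did.

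Oasl1, a negative regulator of Irf7 translation in mice (chr5:114923143-114937911), was listed above 0 mainly in islet libraries. It had 3.39, 0 and 1.97 FPKM in islet Y16A, against 0.106, 0 and 0 in spleen Y16A, and 2.51, 0 and 0.837 FPKM in islet WT, against 0 in all 3 spleen WT libraries. Each group included a library at 0, so all groups overlapped. The fitted log2 change was 0.86 ± 0.56 in Y16A cells (p 0.0471, adjusted p 0.487) and 0.80 ± 0.39 over both origins (p 0.0165, adjusted p 0.238).

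Zbp1 (chr2:173206612-173218959) had 101, 126 and 107 FPKM in islet Y16A, against 117, 21.7 and 75.1 FPKM in spleen Y16A. It had 70.1, 106 and 118 FPKM in islet WT, against 57.6, 67.7 and 81.5 FPKM in spleen WT. The groups overlapped in both origins, and the islet value was higher in 5 of 6 mice. Over both origins the log2 change was 0.46 ± 0.32 (p 0.0401, adjusted p 0.336). The change tested, before the median was subtracted, was 0.70.

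Usp18, which removes Isg15 from proteins and blocks signalling at IFNAR2 (chr6:121245906-121270917), had 1.37, 0 and 11.3 FPKM in islet Y16A, against 10.0, 10.4 and 14.7 FPKM in spleen Y16A. It had 0, 8.95 and 18.3 FPKM in islet WT, against 12.4, 18.8 and 6.96 FPKM in spleen WT. The islet libraries spread from 0 to 18.3 FPKM, while all 6 spleen libraries lay between 6.96 and 18.8. The islet value was lower in 5 of 6 mice, and the log2 change over both origins was -1.83 ± 0.70 (p 0.0411, adjusted p 0.339).

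The remaining genes were mixed in direction between tissues. Trim30a was above without overlap in Y16A islets (4.57 to 7.59 FPKM, against 2.34 to 4.46 in spleen Y16A, limma p 0.175). Isg20 and Trim30a were the 2 of 33 above without overlap in Y16A cells, where 14.6% of all tested genes were. In the same cells 0 were below, where 3.69% were. In WT cells, where 7.51% of all tested genes were above and 3.87% below without overlap, Dhx58 was above (islet WT libraries 3.35 to 5.86 FPKM, spleen WT libraries 1.73 to 3.02) and Ifit1 was below (islet WT 4.49 to 7.32 FPKM, spleen WT 7.88 to 14.5). Across the 35 genes the islet library was the higher for 15, 21 and 11 genes in Y16A mice 1, 2 and 3, and for 18, 7 and 23 genes in WT mice 1, 2 and 3. These counts are of values as deposited and run with shifts of the whole library. The median log2 difference of all tested genes, islet minus spleen, was 0.31, 0.22 and 0.11 in Y16A mice 1 to 3 and 0.08, -0.15 and 0.35 in WT mice 1 to 3, while that of the 33 genes was -0.01, 0.23 and -0.35 in the Y16A mice and 0.11, -0.46 and 0.44 in the WT mice.

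**Figure D2:**
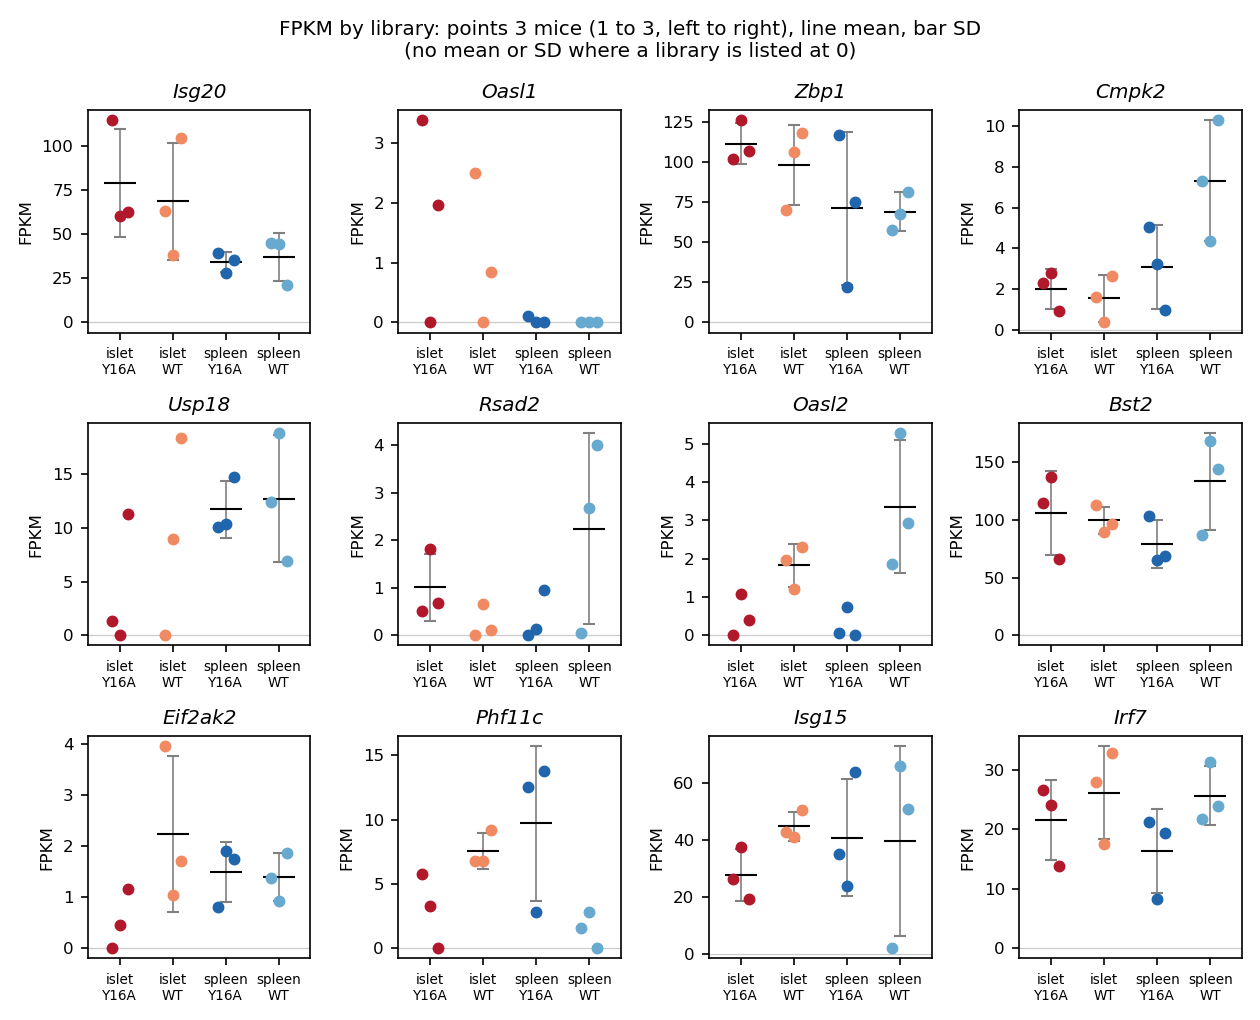
FPKM in each library of 12 interferon-stimulated genes, with points for mice 1 to 3 from left to right, lines for the mean and bars for the SD of 3 libraries where none is listed at 0. Isg20 in islet Y16A (60.2 to 115 FPKM) lies above spleen Y16A (28.1 to 39.5), and Oasl2 lies lower in Y16A than in WT libraries in both tissues.

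Y16A and WT cells did not differ at an adjusted p of 0.05 in any interferon-stimulated gene in either tissue. This held for all tested genes too: 0% were called in islets and 0% in spleen. At an unadjusted p under 0.05, 0 of 33 were higher and 1 lower in Y16A islets, where 3.7% of all tested genes were higher and 1.01% lower. In Y16A spleens 1 was higher and 2 were lower, where 3.26% were higher and 1.94% lower. With median centring or quantile normalization such a p was found for 4 of 33 in islets and 5 in spleen, in either direction. The share of all tested genes with these scalings was not counted.

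The median log2 change of the 33 genes in Y16A islets against WT islets was -0.39, with 8 above the median gene and 25 below. Over all tested genes the median was -0.06, and 45.5% lay above. In spleen the median of the 33 was -0.17, with 10 above and 23 below, while the median of all tested genes was -0.01 and 49% lay above. Before the subtraction the median of the 33 was -0.14 in islets and -0.10 in spleen. The median SE of a single gene's log2 change between groups was 0.48 for the 33 genes and 0.52 for all tested genes.

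**Figure D3:**
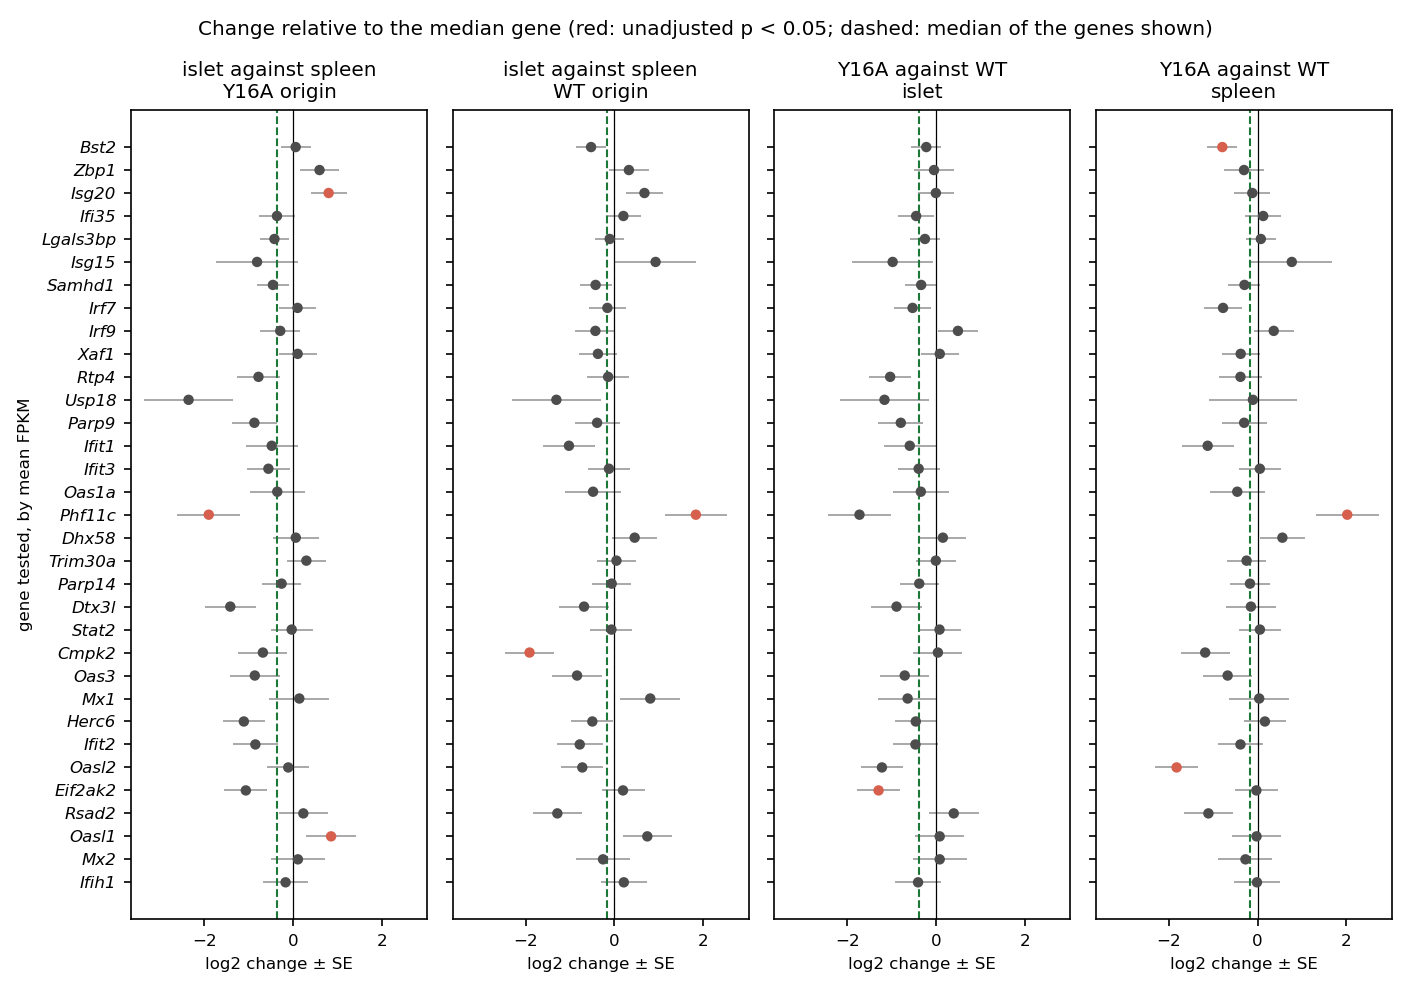
Log2 change with its SE, relative to the median gene, for the 33 tested interferon-stimulated genes in 4 comparisons, ordered by mean FPKM. Red points have an unadjusted p under 0.05, tested before the median was subtracted, and the dashed line is the median of the genes shown. The dashed line lies at -0.35, -0.16, -0.39 and -0.17 from left to right, and no point passed an adjusted p of 0.05.

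Oasl2, an oligoadenylate synthetase-like protein with ubiquitin-like domains (chr5:114896926-114912245), was the only gene of the set whose Y16A values lay wholly below the WT values in both tissues. It had 0, 1.09 and 0.402 FPKM in islet Y16A, against 1.97, 1.21 and 2.31 FPKM in islet WT. It had 0.0696, 0.730 and 0 FPKM in spleen Y16A, against 1.87, 5.28 and 2.93 FPKM in spleen WT. Such a pattern was found in 0.0694% of all tested genes (7 of 10089), and the opposite pattern in 0 of these genes and 0.585% of all. The log2 change was -1.22 ± 0.48 in islets (p 0.0589, adjusted p 0.966) and -1.83 ± 0.48 in spleen (p 0.00179, adjusted p 0.574). All 12 values are low, and those of 4 of the 6 Y16A libraries are near or under the level of 3 fragments on 1500 bases.

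Eif2ak2, the kinase PKR that halts translation on double-stranded RNA (chr17:78850504-78882572), had 0, 0.461 and 1.16 FPKM in islet Y16A, against 3.96, 1.04 and 1.70 FPKM in islet WT. In spleen it had 0.815, 1.90 and 1.76 FPKM in Y16A, against 1.38, 0.935 and 1.87 FPKM in WT. The groups overlapped in both tissues. The islet log2 change was -1.29 ± 0.48 (p 0.0463, adjusted p 0.966), and that in spleen was -0.03.

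Isg15, which is conjugated to proteins as ubiquitin is (chr4:156199424-156200818), had 26.3, 37.6 and 19.2 FPKM in islet Y16A, against 42.7, 41.3 and 50.7 FPKM in islet WT. The islet groups did not overlap. Isg15, Oasl2 and Phf11c were the 3 of 33 below without overlap in islets, where 2.28% of all tested genes were, and 0 of 33 were above, where 7.78% were. In spleen Isg15 had 34.96, 23.8 and 63.9 FPKM in Y16A, against 1.89, 66.0 and 50.8 FPKM in WT, and the value of 1.89 FPKM stood far below the other 11 libraries. The islet log2 change was -0.98 ± 0.92 (p 0.446, adjusted p 0.973), with an SE that includes the spread of the spleen libraries.

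Bst2 (chr8:71534255-71537472) had 103, 65.4 and 68.6 FPKM in spleen Y16A, against 87.1, 168 and 144 FPKM in spleen WT. In islets it had 115, 138 and 66.5 FPKM in Y16A, against 113, 89.7 and 96.4 FPKM in WT. The groups overlapped in both tissues. The log2 change in spleen was -0.80 ± 0.34 (p 0.0463, adjusted p 0.955), and in islets it was -0.22. Irf7, the factor that amplifies interferon alpha production (chr7:141263183-141266499), had 21.3, 8.27 and 19.4 FPKM in spleen Y16A, against 21.7, 31.3 and 23.9 FPKM in spleen WT. These did not overlap, as for 3.5% of all tested genes in this direction, and the log2 change was -0.78 (p 0.111).

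Phf11c, a member of the PHD finger protein 11 cluster (chr14:59380833-59393512), had opposite differences in the tissues. It had 5.79, 3.29 and 0 FPKM in islet Y16A, against 6.82, 6.75 and 9.19 FPKM in islet WT. It had 12.5, 2.82 and 13.8 FPKM in spleen Y16A, against 1.59, 2.80 and 0 FPKM in spleen WT. The Y16A values lay below the WT values in islets and above them in spleen, as for 2.28% and 5.63% of all tested genes, the nearest spleen values being 2.82 and 2.80 FPKM. The log2 change for Y16A against WT was -1.72 in islets (p 0.0524) and 2.02 ± 0.71 in spleen (p 0.00853, adjusted p 0.854). For islet against spleen it was -1.89 ± 0.71 in Y16A cells (p 0.0395, adjusted p 0.462) and 1.84 ± 0.71 in WT cells (p 0.0116, adjusted p 0.362). The interaction was -3.73 ± 1.00 (p 0.00231, adjusted p 1). Phf11c lies among close copies, Phf11a, Phf11b and Phf11d, so how its reads were assigned could set these values, which was not tested.

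The mean log2(FPKM + 1) of the 33 genes was 2.89, 2.86 and 2.65 in islet Y16A, against 2.68, 2.81 and 3.41 in islet WT. In spleen it was 2.96, 2.60 and 3.02 in Y16A, against 2.69, 3.27 and 3.03 in WT. These levels overlapped between origins in both tissues. The summed FPKM of the 35 genes averaged 565 ± 96.0 in islet Y16A and 580 ± 145 in islet WT, and 484 ± 131 in spleen Y16A and 554 ± 123 in spleen WT (SD, n = 3 each).

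When the mean of all tested genes of the same library was subtracted, the values were 0.10, 0.25 and 0.06 in islet Y16A, against 0.43, 0.40 and 0.63 in islet WT. In spleen they were 0.51, 0.24 and 0.59 in Y16A, against 0.60, 0.74 and 0.61 in WT. After this subtraction the origins did not overlap in either tissue, by a narrow margin in spleen, and islet Y16A was the lowest group on average (0.14 ± 0.10, against 0.48 ± 0.13 in islet WT, 0.44 ± 0.18 in spleen Y16A and 0.65 ± 0.08 in spleen WT, SD, n = 3 each). The mean of all tested genes itself was 2.79, 2.62 and 2.59 in islet Y16A, against 2.25, 2.42 and 2.78 in islet WT, so the difference in islets appears with this scaling and not in the levels as deposited. Endocrine markers summed to 1.58 to 55.8 FPKM in islet Y16A, against 26.1 to 1085 in islet WT. Relative to the median gene, several but not all marker lists of other cells also lay lower in islet Y16A than in islet WT. Of all tested genes 45.5% lay above the median gene. Macrophage markers lay lower in 8 of 8 tested genes (median log2 change -0.83) and plasmacytoid dendritic cell markers in 3 of 3 (-0.93). Exocrine markers did in 12 of 15 (-0.48) and endocrine markers in 5 of 6 (-2.69). The gene nearest the median gene was at -0.22 among macrophage markers and at -0.10 among plasmacytoid dendritic cell markers. Both values are smaller in size than the 0.26 subtracted, so those genes were not lower before it. Endothelial and stromal markers went the other way, with 3 of 4 higher (0.62). They summed to 9.55 to 33.3 FPKM in islet Y16A, against 3.78 to 9.27 in islet WT. CD8 and NK cell markers lay lower in 3 of 5 (-0.05). T cell markers lay lower in 4 of 12 (0.09). Weaker shifts were found for dendritic cell markers, lower in 3 of 4 (-0.19), neutrophil markers in 4 of 6 (-0.26) and erythroid markers in 4 of 6 (-0.27). Only 1 B cell marker was tested (-1.15). The part of these markers in the result was not tested.

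**Figure D4:**
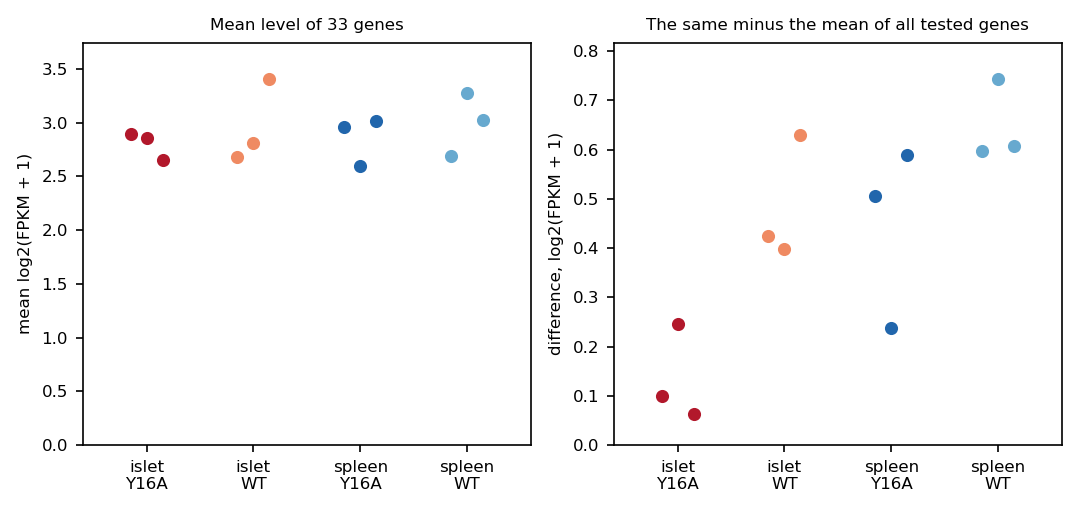
Mean log2(FPKM + 1) of the 33 tested interferon-stimulated genes in each library (left) and the same after subtracting the mean of all 10089 tested genes of that library (right), 3 points per group. On the left the groups overlap, and on the right islet Y16A (0.06 to 0.25) lies below islet WT (0.40 to 0.63).

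In the authors' deposited table of islet Y16A against islet WT, 38 transcripts of 28 of these genes were listed. Of the 38, 0 had in the authors' deposited table a q-value under 0.05, where 0.927% of its 9815 lines did, and the smallest q-value among them was 0.516. A p-value under 0.05 was given for 6 of them in the authors' deposited table, all lower in Y16A, where 6.59% of its lines passed that value in either direction. The FPKM of the authors' deposited table are on another, higher scale than the matrix. In the authors' deposited table Usp18 had 13.0 FPKM in Y16A and 32.3 in WT (p-value 0.0133), and Isg15 had 79.3 in Y16A and 155 in WT (p-value 0.0142). Oasl2 had 1.44 in Y16A and 6.34 in WT in the authors' deposited table (p-value 0.0235). The others of the 6 in the authors' deposited table were a Samhd1 transcript (22.3 FPKM in Y16A and 55.5 in WT), Oas3 (4.49 in Y16A and 9.30 in WT) and Rtp4 (28.4 in Y16A and 55.0 in WT). The other Samhd1 transcript of the authors' deposited table was higher in Y16A, with 37.2 FPKM in Y16A and 27.5 in WT. Summed per gene, 23 of the 28 were lower and 5 higher in Y16A in the authors' deposited table, where 51% of all its genes were lower. That table was made from the same islet samples, so it is no independent measurement.

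The genes upstream of the response were read from lists of pathway members. Interferon alpha and beta transcripts were almost absent. Of 21 interferon genes only Ifng was tested, Ifna5 was listed at 2.504 FPKM in islet Y16A 3 and 13.1 in spleen WT 3, Ifna14 at 0.652 in islet Y16A 3, and Ifnb1 at 0.836 in spleen Y16A 2 and 2.79 in spleen WT 3. The receptor and its kinases were present throughout. Ifnar1 ran from 1.08 to 3.46 FPKM over the 12 libraries, Ifnar2 from 7.45 to 45.5, Jak1 from 21.4 to 48.5, and Tyk2 from 1.82 to 9.39. Of 9 tested genes of the receptors and JAK-STAT pathway 0 were called in any comparison. Of all tested genes, 1.17% were called for islet against spleen in Y16A cells, 0.813% in WT cells and 2.31% over both origins. For Y16A against WT and for the interaction 0% were called. The smallest p of the 9 belonged to Ifngr1, a chain of the interferon gamma receptor. Its log2 change was 0.77 ± 0.47 in Y16A islets against Y16A spleens (limma p 0.0319, adjusted p 0.437).

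Of 13 tested genes of nucleic acid sensing and interferon induction 0 were called in any comparison, where at most 2.31% of all tested genes were. The smallest p of the 13 belonged to Irf5 in WT islets against WT spleens (log2 change 0.95 ± 0.49, p 0.0367, adjusted p 0.547). A further list of 39 tested interferon-stimulated genes likewise had 0 called, and its median log2 change for Y16A against WT was -0.04 in islets and -0.01 in spleen, beside -0.39 and -0.17 for the 33 genes. In that list Ifi27l2a, the most abundant of them, had 3093, 2838 and 2273 FPKM in islet Y16A, against 4177, 4351 and 4888 FPKM in islet WT. Its islet groups did not overlap, as for 2.28% of all tested genes in this direction (log2 change -0.97 ± 0.27, p 0.0165, adjusted p 0.966). Slfn5, a member of the schlafen family, had a log2 change of -1.15 ± 0.31 for islet against spleen over both origins (p 0.0100, adjusted p 0.190).

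Interferon gamma, the type II interferon, behaved otherwise. Ifng had 303, 128 and 170 FPKM in islet Y16A, against 12.4, 5.47 and 11.1 FPKM in spleen Y16A. It had 120, 128 and 182 FPKM in islet WT, against 3.84, 13.6 and 5.92 FPKM in spleen WT. Islet and spleen did not overlap, and Ifng rose in islets of both origins (log2 change 3.89 ± 0.44 in Y16A, limma adjusted p 9.6e-06, and 4.02 ± 0.44 in WT, adjusted p 1.03e-05). Between origins it was not called in islets (log2 change 0.15 ± 0.44, adjusted p 0.966).

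Among 26 tested genes of the interferon gamma response, 1 was called in Y16A islets against Y16A spleens, 0 in WT and 2 over both origins, where 1.17%, 0.813% and 2.31% of all tested genes were called. The chemokine Cxcl10 had 11.0, 28.4 and 19.0 FPKM in islet Y16A, against 0, 2.88 and 5.43 FPKM in spleen Y16A (log2 change 2.39 ± 0.63, adjusted p 0.0395). In WT cells it had 16.1, 24.8 and 30.3 FPKM in islet, against 3.30, 5.88 and 13.8 FPKM in spleen (log2 change 1.505 ± 0.63, adjusted p 0.414). Over both origins Cxcl10 (1.94 ± 0.44, adjusted p 0.00971) and the adhesion molecule Icam1 (1.09 ± 0.31, adjusted p 0.0252) rose in islets. Type I interferon can induce Cxcl10 as well.

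Of 13 tested negative regulators of the pathway, 1 was called for islet against spleen in Y16A cells, in WT cells and over both origins. The shares of all tested genes were 1.17%, 0.813% and 2.31%. The gene called was Tnfaip3, which encodes the ubiquitin-editing enzyme A20. It had 70.5, 51.9 and 59.6 FPKM in islet Y16A, against 3.39, 1.44 and 1.25 FPKM in spleen Y16A. It had 12.8, 20.1 and 53.0 FPKM in islet WT, against 0.484, 1.72 and 1.56 FPKM in spleen WT. Tnfaip3 rose in islets of both origins (log2 change 4.08 ± 0.50 in Y16A, adjusted p 2.99e-05, and 3.37 ± 0.50 in WT, adjusted p 0.000551). The other 12, among them Socs1, which inhibits the JAK kinases, were not called. Socs1 had 35.9, 57.6 and 49.6 FPKM in islet Y16A, against 24.0, 31.7 and 27.1 FPKM in islet WT, and 5.37, 32.1 and 19.3 FPKM in spleen Y16A, against 44.0, 39.97 and 25.4 FPKM in spleen WT. Its islet groups did not overlap, as for 7.78% of all tested genes in this direction, and its spleen groups did. The interaction was 1.75 ± 0.68 (p 0.0112, adjusted p 1), and 4.3% of all tested genes had an unadjusted interaction p under 0.05.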

How the data were processed

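RNA was sequenced from 12 libraries of CD4 T effector cells in 4 groups of 3. Per the labels' protocols, the recovered cells were lysed with Triton X-100, and their reverse-transcribed, amplified cDNA went into Nextera XT libraries. The submitters' processing notes name TopHat 1.0.0, Cufflinks and mm9. The authors deposited a matrix of FPKM by transcript and sample. A second deposited table compares islet Y16A with islet WT and lists FPKM, a p-value and a q-value for each transcript. Of 9808 of its loci, 99.83% overlapped the named gene on GRCm38 in spite of the mm9 note. The build of the matrix is not given in the sources used here, so positions are those of RefSeq genes on GRCm38.p6.

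A gene symbol was found for 99.7134% of the 36285 matrix entries, and transcripts were summed to 24383 genes. The 10089 genes reaching 1 FPKM in 3 or more libraries entered limma 3.58.1 (R 4.3.3, with statmod 1.5.0) as log2 values after adding a pseudocount of 1. The model had 4 group means, an intensity trend, robust variance and 8 residual degrees of freedom over all 12 libraries. P-values were adjusted by Benjamini-Hochberg over all tested genes. The fit was tested on simulated data.

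The genotype labels read NOD for all islet samples but NOD.Y16A for all spleen samples; the titles and design text were used in their place. By their titles, islet and spleen samples share mice, which pairs them. Residuals of the same mouse correlated at 0.0065 to 0.0873, and a fit with the mouse as a block was an alternative. The other alternatives were the pseudocount, filter, scaling, highest transcript, variance model and leaving out each library.

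The genes and lists were chosen with earlier results of these data known. Genes were given in full where an unadjusted p was under 0.05 in a comparison. Isg15, Irf7 and others named for non-overlapping groups were chosen after their values were seen. Of each other list, up to 3 genes with the smallest p in a comparison could be named. Depth was estimated from FPKM steps, and an FPKM of 0 can be a failed estimate.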

Additional observations from a re-analysis of the deposited data

How the results depend on the processing

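Under the 20 alternative settings 0 of the interferon-stimulated genes were called in any comparison, with 1 exception. Testing only genes with a mean of at least 5 FPKM gave 1 call among 17 for islet against spleen over both origins (Isg20, adjusted p 0.0482). With that filter 196 of all 4235 tested genes were called higher and 31 lower in the same comparison. The adjusted p of Isg20 in that comparison ran from 0.0482 to 0.488 over the settings and its log2 change, before the median was subtracted, from 0.68 with quantile normalization to 2.29 with the highest transcript, against 0.98 as reported. Bst2 in islets (-0.22) and Eif2ak2 in spleen (-0.03) were each 0.04 before the subtraction, so their direction depended on it. Printed changes with a larger p were not followed through the settings. The 16 changes with an unadjusted p under 0.05, before the median was subtracted, kept their direction in every setting that tested the gene. On the same scale, values moved by over 1.5 times without 1 library for Eif2ak2 in islets (-0.68 without islet WT 1, against -1.04), Oasl1 in Y16A cells (1.80 without islet Y16A 2, against 1.19), Phf11c in Y16A cells (-0.76 without islet Y16A 3, against -1.57), Usp18 (-0.96 without islet WT 1, against -1.59) and Zbp1 (0.36 without spleen Y16A 2, against 0.70), the last 2 over both origins. Zbp1 was 0.33 with quantile normalization and 1.45 with the highest transcript. A pseudocount of 0.1 gave changes over 1.5 times larger for Eif2ak2, Oasl1, Oasl2, Phf11c, Rsad2 and Usp18. The smallest adjusted p of Oasl2 for Y16A against WT in spleen was 0.335 and the largest 0.922.

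With the mouse as a replicate block, 0 interferon-stimulated genes were called, and 136, 99 and 282 of all tested genes were called for islet against spleen in Y16A, in WT and over both origins, against 118, 82 and 233 without it; the block changed no call of a named interferon-stimulated gene. Over both origins 140 genes were called with no filter and 151 with the highest transcript. For Y16A against WT, 1 gene was called in islets with a pseudocount of 0.1, and in spleen 1 with a pseudocount of 0.1, 1 with quantile normalization and 5 with the highest transcript. For the interaction 1 was called with quantile normalization. Leaving out each library gave 0 to 1 calls over all genes for the interaction, 0 to 1 for Y16A against WT in islets and 0 to 1 in spleen. For islet against spleen the 20 lower calls in Y16A became 12 without islet Y16A 2, and the 18 lower calls in WT became 7 without islet WT 2, 11 without islet WT 1 and 11 without spleen WT 3. The cause was not tested.

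Scaling moved the split of all calls: for islet against spleen in Y16A, 98 higher and 20 lower became 74 and 47 with median centring and 75 and 48 with quantile normalization, in WT 64 and 18 became 74 and 24 or 69 and 35, and over both origins 190 and 43 became 150 and 95 or 149 and 100. Scaling also moved the counts of the 33 genes at an unadjusted p under 0.05. For islet against spleen, 3 in Y16A became 5 with median centring and 4 with quantile normalization. In WT 2 became 3 or 4, and over both origins 5 became 8 or 9. For Y16A against WT, 1 in islets became 4 and 3 in spleen became 5 with either scaling, while 2 for the interaction became 1. The share of all tested genes at that p was not counted with these scalings in any comparison. These counts therefore cannot be set against the other genes. By the rough depth estimate, values under 0.254 to 0.496 FPKM, by library, rest on fewer than 3 fragments on a transcript of 1500 bases. This limits the precision of the genes listed at or near 0.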
